A study of Mus musculus with 6 samples.

Results

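Sox7, Sox17 and Sox18 are the 3 mouse genes of the SoxF group of transcription factors. They were taken by symbol from the deposited table of raw counts, which holds 52636 Ensembl genes, of which 13901 had enough counts to be tested, the 3 SoxF genes among them. RNA was sequenced from endothelial cells grown from mouse brain, in 3 libraries labelled as Erg and Fli1 double knockout, called knockouts here, and 3 libraries labelled as wild-type control. All cultures, controls included, had received 4-hydroxytamoxifen (4-OHT) to induce gene deletion. The labels used here name neither the recombinase nor its driver, nor the age of the mice, and do not tie libraries to cultures or animals, so p-values measure a spread between libraries that may be technical. The sort kept live cells without CD45 that carried CD31 (encoded by Pecam1) and VE-cadherin (encoded by Cdh5), so cells that had lost either protein would not be among those measured. Erg and Fli1, the genes targeted for deletion, encode endothelial factors of the ETS family, and the comparison asks how SoxF transcripts differ between the groups. The fall of Erg was visible in the counts, whereas that of Fli1 was not clear: Fli1 stood at 80.3% of the control mean and its groups overlapped.

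Sox proteins bind DNA through an HMG box, which binds the minor groove and bends DNA. The SoxF proteins are the Sox factors best known from blood and lymphatic vessels. In mice they act in part in place of one another in vessel growth and artery formation, Sox17 is known for arterial identity, and Sox18 turns on the lymphatic regulator gene Prox1 in the embryo. Sox18 is the gene mutated in ragged mice, whose lymphatic vessels fail. In endothelial cells VEGF receptors, Wnt and Notch signalling are linked to SoxF factors, which can bind beta-catenin, Rbpj and Mef2c.

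The 3 genes lie on different chromosomes (GRCm38, GENCODE M21) and are all protein-coding. Sox7 (ENSMUSG00000063060) lies on chromosome 14, 63943673 to 63950732, plus strand, Sox17 (ENSMUSG00000025902) on chromosome 1, 4490931 to 4497354, minus strand, and Sox18 (ENSMUSG00000046470) on chromosome 2, 181669836 to 181671640, minus strand. The exons of each cover 3299, 4772 and 1620 bases. No 50-base sequence of their transcripts was shared within the group, which bears on whether reads can be assigned to one of the 3 genes. Of the 50-base sequences of Sox7, 0.062% occurred in transcripts of other genes on the same strand and 0.031% on the opposite strand, and of Sox18 none did. Of the Sox17 exons, 16.8% overlap Gm37587, a gene on the opposite strand. Gm37587 had 1 count in each knockout library and 4, 0 and 4 counts in controls 1, 2 and 3. The strand setting of the counting is not given in the sources used here, so reads of Gm37587 and Sox17 over the shared exons cannot be told apart.

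The libraries held 17274639 to 19410458 counts, and levels are given as CPM, counts relative to TMM-scaled library sizes. Erg had 89.3 ± 19.6 CPM in knockouts and 496 ± 238 CPM in controls (SD, n = 3 each; edgeR adjusted p = 0.0137). Without control 3 or any 1 knockout library Erg no longer passed (edgeR adjusted p up to 0.0691). Fli1 had 64.1 ± 6.14 CPM in knockouts and 79.7 ± 14.3 CPM in controls (edgeR adjusted p = 0.181). Without control 2 Fli1 was called lower, at a log2 fold change of -0.48 (edgeR adjusted p = 0.00346). The counts cover whole genes, so transcripts that lack deleted exons would be counted as well, and the Fli1 label could not be checked from them. Control 2 stood apart: the chi-square of its counts, divided by the degrees of freedom, was 217 and 197 against controls 1 and 3, compared with 10.02 to 11.6 between knockouts and 6.36 between controls 1 and 3. By Xist alone (over 50 CPM), knockouts 2 and 3 and control 2 were read as female, and knockout 1 and controls 1 and 3 as male. Controls 1 and 3 had 5.32 and 3.84 CPM of Xist, against 0.154 CPM in knockout 1. The 1 control read as female is also the one that stood apart. The 12 endothelial marker genes were all present and summed to 3857 to 4757 CPM in knockouts, against 17339, 7384 and 17194 CPM in controls 1, 2 and 3. The 8 fibroblast markers summed to 1645 to 2863 CPM in knockouts, against 407, 12309 and 1093 CPM in controls 1, 2 and 3, and single members differed. Dcn, a proteoglycan gene, made up most of the knockout sums, with 1421, 2110 and 1343 CPM in knockouts 1, 2 and 3, against 3.95, 317 and 6.96 CPM in controls 1, 2 and 3. Col1a1, a collagen gene, had 235, 104 and 110 CPM in knockouts 1, 2 and 3, against 214, 5489 and 628 CPM in controls 1, 2 and 3. Neither passed the test (edgeR adjusted p = 0.156 and 0.0830), and without control 2 Dcn was called higher and Col1a1 lower. Of the 7 fibroblast markers tested, Pdgfra was the 1 called with all 6 libraries, where 13.1% of all tested genes were called higher. Pdgfra had 15.5 ± 1.52 CPM in knockouts and 5.23 ± 0.912 CPM in controls (edgeR adjusted p = 0.00351). The 9 mural cell markers summed to 716 to 1490 CPM in knockouts, against 453, 3954 and 557 CPM in controls 1, 2 and 3. Markers of leukocytes, of glia and neurons and of epithelium summed to at most 10.3 CPM in any library, and Ptprc, the gene of CD45, had at most 4 counts. In such bulk libraries, fewer endothelial cells and less RNA per cell cannot be told apart. The part of these markers in the results on SoxF genes was not tested.

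The SoxF genes did not move alike. Sox18, the most abundant of them in controls, fell to 4.86% of the control mean in knockouts, Sox7 fell to 23.0%, and Sox17 stood at 81.0% of the control mean and did not pass the test. The edgeR test called 2 of the 3 genes lower and 0 higher, where 24.7% of all tested genes were called, 11.7% lower and 13.1% higher. No SoxF gene was higher at an unadjusted p under 0.05, with DESeq2 or with limma voom either. For both called genes each knockout lay below each control, as did 21.3% of all tested genes. Without control 2 all 3 were called lower, in a fit that called 50.3% of genes, 24.8% lower and 25.5% higher.

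Sox18 had 5.60, 11.3 and 28.7 CPM in knockouts 1, 2 and 3, against 389, 161 and 387 CPM in controls 1, 2 and 3. The highest knockout library lay far below the lowest control, and the libraries of each group were themselves spread. The means were 15.2 ± 12.03 CPM in knockouts and 312 ± 131 CPM in controls (SD, n = 3 each), and the log2 fold change was -4.36 (SE 0.73, 95% interval -6.17 to -2.55, edgeR adjusted p = 0.0115). By this fold change Sox18 ranked 43rd from the lowest of 13901 tested genes. Leaving out control 2 gave -4.72 (edgeR adjusted p = 3.874e-04), and without knockout 2 it was -4.18 and missed the threshold (edgeR adjusted p = 0.0641). Knockout 3 held the most Sox18, 340% of the mean of knockouts 1 and 2. Leaving it out gave -5.21.

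Sox7 had 37.9, 34.8 and 54.0 CPM in knockouts 1, 2 and 3, against 180, 178 and 192 CPM in controls 1, 2 and 3. The control libraries were close together and the groups lay well apart. The means were 42.2 ± 10.3 CPM in knockouts and 183 ± 7.74 CPM in controls (SD, n = 3 each), with a log2 fold change of -2.12 (SE 0.18, 95% interval -2.56 to -1.68, edgeR adjusted p = 0.00202). Leaving out any 1 library kept the call, with log2 fold changes of -2.33 to -1.99 and an edgeR adjusted p of at most 0.0155.

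Sox17 had 69.8, 59.8 and 66.3 CPM in knockouts 1, 2 and 3, against 103, 36.0 and 102 CPM in controls 1, 2 and 3. Control 2 lay below every knockout library and controls 1 and 3 above them, so the groups overlapped through this 1 library. The means were 65.3 ± 5.06 CPM in knockouts and 80.7 ± 38.7 CPM in controls (SD, n = 3 each). Its log2 fold change of -0.30 (SE 0.40) did not pass (edgeR adjusted p = 0.612), and the 95% interval of -1.28 to 0.67 held both a fall and a rise. Without control 2 it was -0.69 (SE 0.07, 95% interval -0.86 to -0.52, edgeR adjusted p = 2.458e-04), with knockouts at 63.4% of the mean of controls 1 and 3. Even this interval lies above the intervals of Sox7 (-2.58 to -1.77) and Sox18 (-5.98 to -3.45) from the same fit. The sexes went opposite ways: knockout 1 lay below controls 1 and 3 among the male libraries, and knockouts 2 and 3 lay above control 2 among the female ones. With a term for sex, chosen after seeing the data, the estimate was 0.12 (edgeR adjusted p = 0.835). With a single female control, sex and the other features of control 2 cannot be told apart. For Sox7 and Sox18 each knockout lay below each control over all libraries, and the same order within each sex follows from that.

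**Figure D1:**
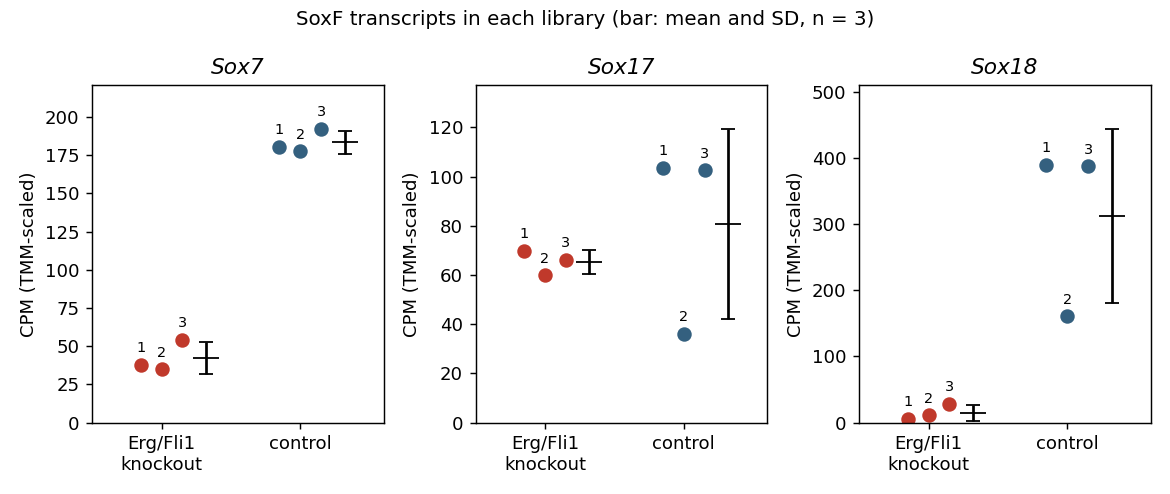
CPM of Sox7, Sox17 and Sox18 in each library, knockouts in red and controls in blue, numbered by replicate, with the mean and SD of each group beside the points; each panel has its own linear axis from 0. The knockout points lie below all controls for Sox7 (34.8 to 54.0 against 178 to 192 CPM) and Sox18 (5.60 to 28.7 against 161 to 389 CPM), whereas for Sox17 control 2, at 36.0 CPM, lies below the knockouts.

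Control 2 separated Sox7 from the other members. Its Sox7 level was 95.3% of the mean of controls 1 and 3, whereas Sox17 stood at 35.0% and Sox18 at 41.4%. Of the 12 endothelial markers, 8 were under 50% in control 2, with a median of 43.9%. Tek, encoding the angiopoietin receptor, at 101%, and Vwf, encoding von Willebrand factor, at 169%, were the markers not lower there. Erg stood at 35.3%. Knockout 3 differed from the other knockouts in the other direction: relative to the mean of knockouts 1 and 2, Sox7 was at 149%, Sox17 at 102% and Sox18 at 340%. The endothelial markers ranged from 109% to 477% on this scale, with a median of 139% and Cldn5 the highest, and Erg was at 138%. The part of the remaining Erg in these differences was not tested.

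Because transcripts differ in length, the 3 genes were set beside each other as RPKM, CPM per kilobase of exon. In controls the order was Sox18 (193 ± 81.0 RPKM), Sox7 (55.6 ± 2.35 RPKM) and Sox17 (16.9 ± 8.11 RPKM; SD, n = 3 each), and the order held in each control library with no overlap between genes. In knockouts the means were 13.7 ± 1.06 RPKM for Sox17, 12.8 ± 3.12 RPKM for Sox7 and 9.37 ± 7.42 RPKM for Sox18, whose order did not hold across libraries. Sox17 led in knockouts 1 and 2 and Sox18 in knockout 3. With the longest annotated transcript as length, Sox17 led in all 3 knockouts, and in knockout 3 it made up 37.5% of the sum, ahead of Sox18 at 32.5%. The summed SoxF level was 29.6, 30.0 and 48.0 RPKM in knockouts 1, 2 and 3, against 317, 161 and 319 RPKM in controls 1, 2 and 3, and the knockout mean was 13.5% of the control mean.

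The make-up of the SoxF transcripts was set beside these levels. Sox18 made up 11.7%, 23.2% and 36.9% of the summed RPKM in knockouts 1, 2 and 3, against 75.9%, 61.8% and 75.0% in controls 1, 2 and 3. Sox17 made up 49.4%, 41.7% and 29.0% in knockouts, against 6.85%, 4.70% and 6.74% in controls. Neither share overlapped between the groups. Sox7 made up 36.0 ± 2.51% in knockouts and 23.0 ± 9.10% in controls (SD, n = 3 each). Its share in control 2, 33.5%, was close to the lowest knockout value, 34.1%. With the longest annotated transcript as the length of each gene, Sox7 made up 31.5%, 29.3% and 30.01% in knockouts 1, 2 and 3, against 16.7%, 32.8% and 17.7% in controls 1, 2 and 3, and control 2 lay above the knockouts. Exact two-sided permutation tests gave p = 0.1 for each of the 3 shares, the smallest that 3 against 3 libraries allow, and 0.1 after adjustment over the 3. These shares are ratios within a library and do not depend on its scaling, and a share can rise while the level does not.

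**Figure D2:**
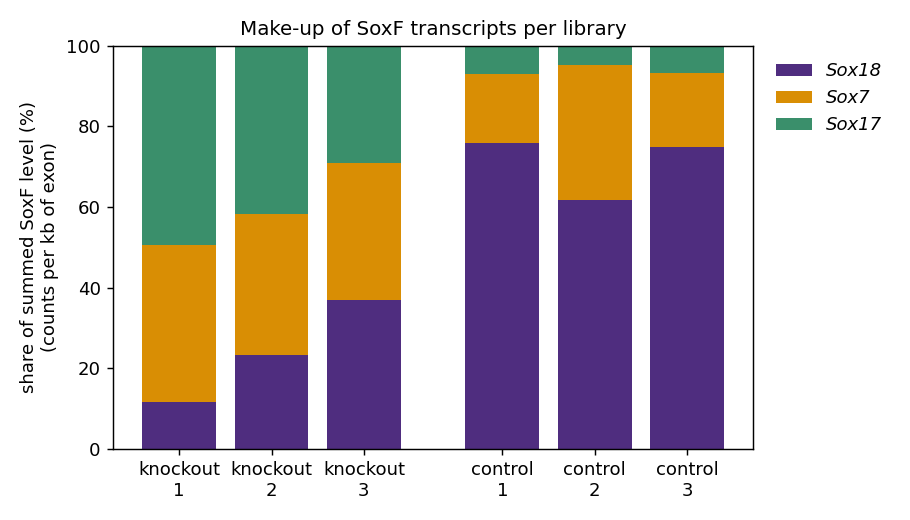
Share of each SoxF gene in the summed SoxF level (counts per kb of exon) in each library, knockouts left and controls right, stacked to 100%. Sox18 fills 11.7% to 36.9% of the knockout bars and 61.8% to 75.9% of the control bars, and Sox17 29.0% to 49.4% of the knockout bars and 4.70% to 6.85% of the control bars.

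The ratio between members was compared for 3 pairs. The log2 ratio of Sox18 to Sox7 was -1.73, -0.60 and 0.11 in knockouts 1, 2 and 3, against 2.14, 0.88 and 2.04 in controls 1, 2 and 3. The difference between the group means was -2.42, so Sox18 was lower relative to Sox7 in each knockout than in each control. For Sox18 to Sox17 the means were -0.86 ± 1.21 in knockouts and 3.55 ± 0.14 in controls (SD, n = 3 each), a difference of -4.41. The 3 controls, control 2 included, lay between 3.47 and 3.72 in this ratio, while the knockouts spread from -2.07 to 0.35. For Sox17 to Sox7 the means were 0.12 ± 0.31 in knockouts and -1.87 ± 0.84 in controls (SD, n = 3 each), a difference of 1.99. In all 3 pairs the groups did not overlap. Exact two-sided permutation tests gave p = 0.1, the smallest possible here, and 0.1 after adjustment over the 3 pairs. The pairs are not separate results, since the ratio of Sox18 to Sox17 follows from the other ratios in each library.

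Of 17 genes of the other Sox groups, 8 were tested, 2 were called lower and 0 higher (edgeR), where 11.7% of all tested genes were called lower and 13.1% higher. Their median log2 fold change was -0.93, beside 0.00 over all tested genes. The median depended on control 2, without which it was 0.16. Sox13, a SoxD factor, had 43.1 ± 4.37 CPM in knockouts and 95.4 ± 25.0 CPM in controls (SD, n = 3 each), a log2 difference of -1.15 with an SE of 0.21 (edgeR adjusted p = 0.0156). Control 2 had 66.8 CPM of Sox13, against 113 and 106 CPM in controls 1 and 3. Sox2, the SoxB factor of neural stem cells, had 0 counts in each knockout library and 12, 44 and 11 counts in controls 1, 2 and 3. Set against a floor of 3 counts over the knockouts, the pooled 67 control counts put Sox2 at least 22.2-fold lower there. Control 2 held 44 of these counts, so the bound from controls 1 and 3 alone would be smaller. Both calls were lost without control 1, control 3 or any 1 knockout library (edgeR adjusted p up to 0.0743 for Sox13 and 0.0909 for Sox2).

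Sox4, Sox6 and Sox12 lay higher in each knockout than in each control without passing the test; 25.0% of all tested genes lay higher in each knockout. They are named here after their values were seen. Sox4, a SoxC factor, was the most abundant of them, with 61.8 ± 5.18 CPM in knockouts and 51.3 ± 3.44 CPM in controls (SD, n = 3 each; edgeR adjusted p = 0.0819). Sox12, also of the SoxC group, had 17.8 ± 0.502 CPM in knockouts and 8.89 ± 4.34 CPM in controls (edgeR adjusted p = 0.0855). Sox6, a SoxD factor, had 2.67 ± 0.806 CPM in knockouts and 1.00 ± 0.400 CPM in controls (edgeR adjusted p = 0.0515). All 3 were higher at an unadjusted p under 0.05, and all 3 passed without control 2 (edgeR adjusted p = 0.0463, 4.139e-04 and 0.0273 for Sox4, Sox12 and Sox6). The fit without control 2 called 25.5% of its tested genes higher. Sox6 and Sox12 were called higher with DESeq2 and with limma voom. Sox9, which marks glia and cartilage, and Sox11 had their highest level in control 2, at 9.91 and 19.4 CPM, and were not called. Sry and Sox1 had 0 counts in all libraries.

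**Figure D3:**
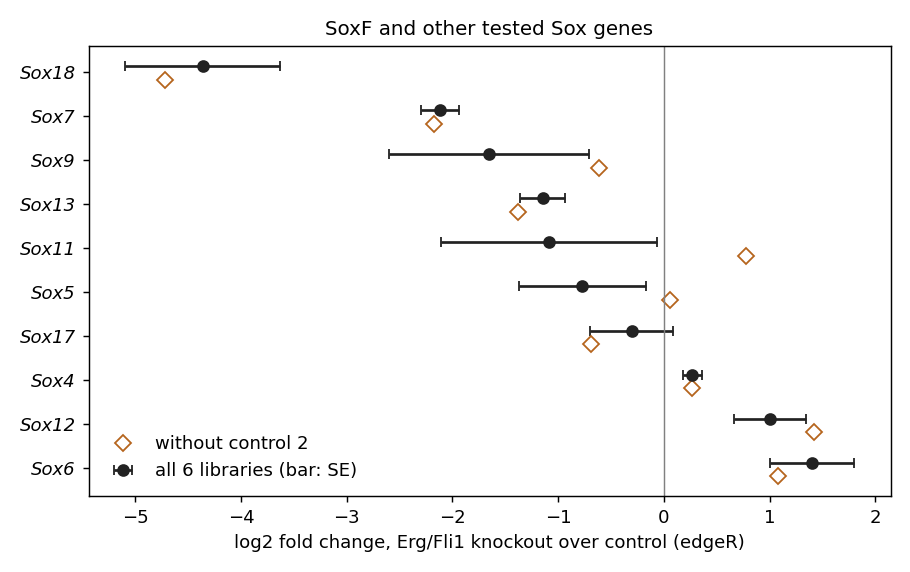
Log2 fold change (knockout over control, edgeR) of the SoxF genes and the tested genes of other Sox groups; filled points use all 6 libraries with the SE as a bar, and open diamonds leave out control 2. Sox18 (-4.36) and Sox7 (-2.12) lie furthest to the left, Sox11 stands at 0.78 without control 2 and at -1.08 with it, and Sox2 is left out because all knockout libraries had 0 counts.

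Genes linked to SoxF factors were described as 5 lists, drawn up from general knowledge: signals and partners, arterial and Notch genes, junction and adhesion genes, lymphatic genes, and readouts of Wnt signalling. Together they hold 41 genes, of which 38 were tested. Of these, 13 were called lower and 6 higher, 34.2% and 15.8%, beside 11.7% and 13.1% of all tested genes. Their median log2 fold change was -0.26 beside 0.00 over all tested genes. Of the 12 endothelial markers, 11 were called lower (91.7%) and 0 higher, with a median log2 fold change of -2.19. Kdr, Cdh5, Cldn5 and Robo4 belong to both sets. Whether the linked genes differ from endothelial genes in general was not tested.

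Among 13 signals and partners, 3 fell and 3 rose, where 11.7% of all tested genes were called lower and 13.1% higher. Kdr, encoding the main VEGF receptor of endothelium, had 240 ± 26.7 CPM in knockouts and 651 ± 196 CPM in controls (SD, n = 3 each; log2 fold change -1.44, edgeR adjusted p = 0.0126). Flt4, encoding the receptor of VEGF-C, had 69.4 ± 7.82 CPM in knockouts and 227 ± 84.4 CPM in controls (log2 fold change -1.71, edgeR adjusted p = 0.0137). Its ligand gene Vegfc moved the other way, with 65.7, 72.8 and 56.2 CPM in knockouts 1, 2 and 3, against 2.63, 5.61 and 3.34 CPM in controls 1, 2 and 3 (log2 fold change 4.07, SE 0.31, edgeR adjusted p = 0.00163). Rbpj, the DNA-binding partner of Notch, had 128 ± 7.26 CPM in knockouts and 63.3 ± 18.8 CPM in controls (log2 fold change 1.02, edgeR adjusted p = 0.0203). Kdr, Flt4 and Rbpj each lost the call when some single libraries were left out (edgeR adjusted p up to 0.0644, 0.0696 and 0.0753), and Vegfc kept it. Ctnnb1, encoding beta-catenin, had 904 ± 48.1 CPM in knockouts and 1056 ± 101 CPM in controls and did not pass (edgeR adjusted p = 0.175), and neither did Mef2c (edgeR adjusted p = 0.113). Without control 2 Ctnnb1 was called lower (edgeR adjusted p = 0.00430).

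Of 11 arterial and Notch genes, 7 fell, 1 rose and 3 did not pass, with a median log2 fold change of -0.93. Over all tested genes, 11.7% were called lower and 13.1% higher. Dll4, a Notch ligand gene with an enhancer known to bind SoxF factors, had 12.8, 10.9 and 32.9 CPM in knockouts 1, 2 and 3, against 520, 327 and 526 CPM in controls 1, 2 and 3. The fitted log2 difference was -4.60 with an SE of 0.53 (edgeR adjusted p = 0.00426), near that of Sox18. Exons of an opposite-strand gene cover 5.56% of the Dll4 exons. Hey1, a Notch target gene, had 1.07 ± 0.527 CPM in knockouts and 14.8 ± 6.96 CPM in controls (log2 fold change -3.77, SE 0.53, edgeR adjusted p = 0.00689). Gja4, encoding the arterial gap junction protein connexin 37, had 1.19 ± 0.260 CPM in knockouts and 10.8 ± 1.06 CPM in controls (log2 fold change -3.18, edgeR adjusted p = 0.00123). Notch4, a Notch receptor gene of endothelium, had 96.8 ± 31.4 CPM in knockouts and 653 ± 218 CPM in controls (log2 fold change -2.76, edgeR adjusted p = 0.00588). These 4 genes kept their calls when any 1 library was left out. Nrp1, a VEGF and semaphorin co-receptor gene, was the 1 that rose (485 ± 20.4 CPM in knockouts, 153 ± 94.2 CPM in controls, edgeR adjusted p = 0.0381), and Efnb2, an arterial marker, did not pass (337 ± 42.5 CPM in knockouts, 288 ± 52.6 CPM in controls, edgeR adjusted p = 0.343). Without control 2 Efnb2 was called higher as well (log2 fold change 0.35, edgeR adjusted p = 0.0257). Nrp1 and Efnb2 were chosen after seeing their values.

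Of 4 junction and adhesion genes, 3 fell and 0 rose (edgeR), where 11.7% of all tested genes were called lower and 13.1% higher. At an unadjusted p under 0.05, with DESeq2 and with limma voom 0 rose as well. Cldn5, encoding the chief claudin of brain endothelium, had 3.96, 6.64 and 25.3 CPM in knockouts 1, 2 and 3, against 340, 121 and 339 CPM in controls 1, 2 and 3 (log2 fold change -4.48, SE 0.87, edgeR adjusted p = 0.0174). Robo4, an endothelial guidance receptor gene, had 66.4 ± 34.5 CPM in knockouts and 1008 ± 551 CPM in controls (log2 fold change -3.92, SE 0.65, edgeR adjusted p = 0.0110). Cdh5, whose protein was used for the sort, had 1270 ± 153 CPM in knockouts and 3985 ± 1460 CPM in controls (log2 fold change -1.65, edgeR adjusted p = 0.0168). Each of these 3 lost its call when some single libraries other than control 2 were left out (edgeR adjusted p up to 0.0810, 0.0622 and 0.0823). Vcam1, a leukocyte adhesion gene and known Sox18 target, had 745 ± 44.6 CPM in knockouts and 518 ± 195 CPM in controls (edgeR adjusted p = 0.250). It lay higher in each knockout library than in each control, as did 25.0% of all tested genes. Without control 2 it was called higher (edgeR adjusted p = 0.0479).

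Of 5 lymphatic genes, Flt4 was the 1 called, and 0 rose (edgeR), where 11.7% of all tested genes were called lower and 13.1% higher. At an unadjusted p under 0.05, with DESeq2 and with limma voom 0 rose as well. Counts from so short a list say little about lymphatic genes as a group. Prox1 was scarce, with 18, 18 and 12 counts in knockouts 1, 2 and 3, against 1, 11 and 3 counts in controls 1, 2 and 3 (edgeR adjusted p = 0.146). It thus lay higher in each knockout than in each control, as did 25.0% of all tested genes. A link between its level and that of Sox18 was not tested. Nr2f2, a venous and lymphatic factor gene, had 177 ± 12.3 CPM in knockouts and 109 ± 58.8 CPM in controls (edgeR adjusted p = 0.216), with control 2, at 176 CPM, among the knockouts. Without control 2, Prox1 and Nr2f2 were called higher (edgeR adjusted p = 0.00487 and 1.805e-04), as were 25.5% of the genes tested in that fit. Prox1 and Nr2f2 were chosen after seeing their values.

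Of 9 Wnt readouts, 6 were tested, 2 rose and 0 fell (edgeR), where 11.7% of all tested genes were called lower and 13.1% higher. At an unadjusted p under 0.05 and with DESeq2, 1 was lower, and with limma voom 0. Tcf7 had 6.77 ± 0.330 CPM in knockouts and 3.66 ± 0.369 CPM in controls (log2 fold change 0.89, edgeR adjusted p = 0.0102), and Znrf3, a feedback inhibitor gene, had 12.3 ± 0.392 CPM in knockouts and 7.24 ± 1.23 CPM in controls (log2 fold change 0.76, edgeR adjusted p = 0.0180). Tcf7 lost the call without knockout 2 (edgeR adjusted p = 0.0533), and Znrf3 without any 1 library other than control 2 (edgeR adjusted p up to 0.0731). The member lower in the other counts was Apcdd1, a Wnt inhibitor gene of brain endothelium, named after its values were seen, with 22.4, 13.1 and 25.4 CPM in knockouts 1, 2 and 3, against 92.1, 23.1 and 95.1 CPM in controls 1, 2 and 3 (edgeR adjusted p = 0.0737). As for Sox17, control 2 was the library that made its groups overlap, and without it Apcdd1 was called lower (edgeR adjusted p = 2.624e-04). Axin2, the general Wnt readout, was at most 0.980 CPM in any library and was not called.

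**Figure D4:**
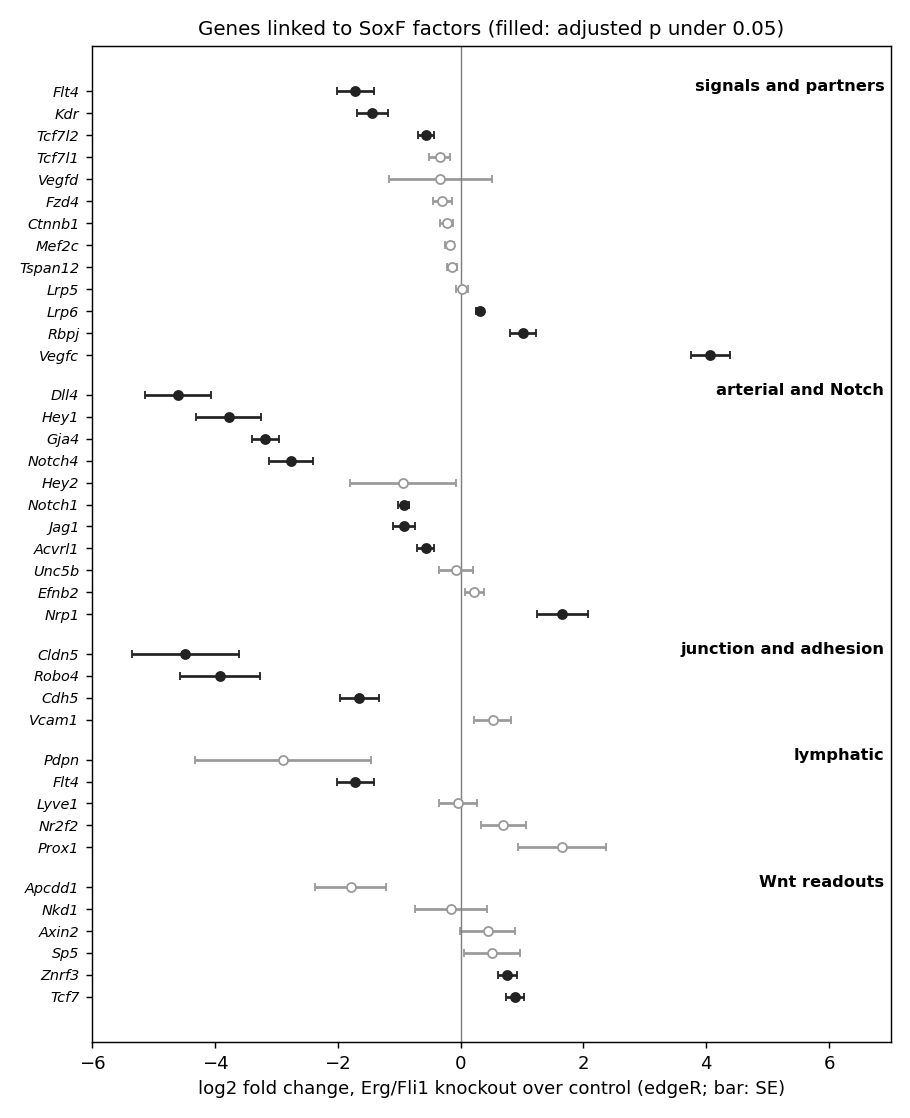
Log2 fold change (knockout over control, edgeR) with its SE for the tested genes of the 5 lists linked to SoxF factors; filled points passed an adjusted p under 0.05. Dll4 (-4.60), Cldn5 (-4.48) and Robo4 (-3.92) lie furthest to the left and Vegfc (4.07) furthest to the right.

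The genes beside the SoxF loci were examined next, as the nearest tested protein-coding gene on either side. Tcea2, which encodes a transcription elongation factor and starts 8669 bases beyond Sox18, fell with it, with 8.74, 9.54 and 10.3 CPM in knockouts 1, 2 and 3, against 36.2, 19.9 and 34.0 CPM in controls 1, 2 and 3 (log2 fold change -1.66, SE 0.24, edgeR adjusted p = 0.00798). The call held when any 1 library was left out (edgeR adjusted p up to 0.0467). Samd10, on the other side of Sox18 at 70623 bases, had 9.68 ± 0.914 CPM in knockouts and 9.39 ± 2.702 CPM in controls (SD, n = 3 each; edgeR adjusted p = 0.914). Beside Sox7, Pinx1 had 19.1 ± 0.829 CPM in knockouts and 20.5 ± 0.640 CPM in controls (edgeR adjusted p = 0.343), and Msra, encoding a methionine sulfoxide reductase, had 10.4 ± 1.28 CPM in knockouts and 7.34 ± 0.960 CPM in controls (edgeR adjusted p = 0.0697). Beside Sox17, Mrpl15, encoding a mitochondrial ribosomal protein, had 33.6 ± 0.867 CPM in knockouts and 44.1 ± 4.17 CPM in controls (log2 fold change -0.39, edgeR adjusted p = 0.0281), a call lost without any 1 library other than control 2 (edgeR adjusted p up to 0.109). No tested protein-coding gene lay on the other side of Sox17.

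The 3 genes with the profile nearest to each member over the 6 libraries were different for each. Likeness was the root mean square difference of log2(CPM + 0.5), each gene centred on its own mean, among 9271 tested genes averaging 10 CPM or more. Nearest to Sox7 were Tek (0.088), Tmc7 (0.128) and Efna1 (0.132), an ephrin ligand gene, all 3 flat over the controls and low in the knockouts. Tek had 22.3, 24.7 and 32.8 CPM in knockouts 1, 2 and 3, against 114, 116 and 118 CPM in controls 1, 2 and 3. Nearest to Sox17 were Nceh1 (0.076), a cholesterol ester hydrolase gene, Tnfrsf26 (0.091), of the TNF receptor superfamily, and Fam107b (0.094), each with its lowest level in control 2. Nceh1 had 26.4, 24.9 and 25.5 CPM in knockouts 1, 2 and 3, against 42.1, 15.8 and 40.7 CPM in controls 1, 2 and 3. Exons of an opposite-strand gene cover 3.33% of the Tnfrsf26 exons. Nearest to Sox18 were Cldn5 (0.196), Rasip1 (0.239), a vessel lumen gene, and Ushbp1 (0.249), each with its highest knockout level in knockout 3. Ushbp1 had 3.19, 7.31 and 21.3 CPM in knockouts 1, 2 and 3, against 186, 96.2 and 177 CPM in controls 1, 2 and 3. Rasip1 counts are uncertain, since its exons overlap those of other genes over 20.4% on the same strand and 22.5% on the other. Between members the difference was 1.11 for Sox7 and Sox17, 1.35 for Sox7 and Sox18 and 2.28 for Sox17 and Sox18. The nearest genes were picked as the closest of 9271, so their smaller differences follow from the choice.

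**Figure D5:**
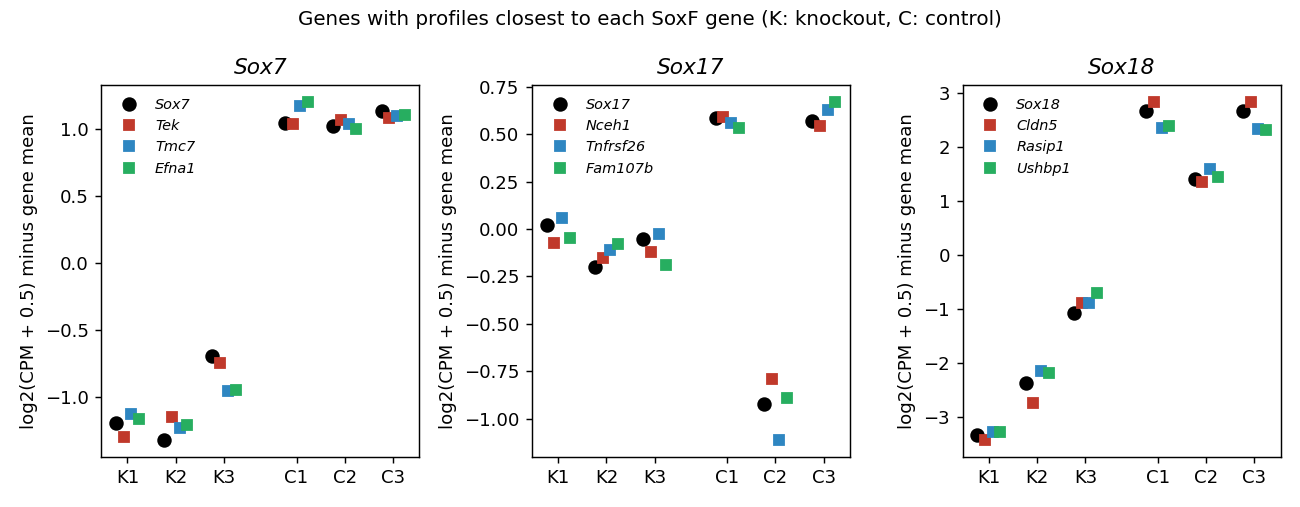
Profiles of Sox7, Sox17 and Sox18 (circles) and of the 3 genes nearest to each (squares) over the 6 libraries, as log2(CPM + 0.5) minus the mean of the gene, with knockouts (K) left of controls (C) and a separate axis per panel. Sox7 and its neighbours are flat over the controls, Sox17 and its neighbours are lowest in control 2, and Sox18 and its neighbours are highest among the knockouts in knockout 3.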

How the data were processed

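Polyadenylated RNA from the sorted brain endothelial cells was made into libraries with TruSeq kits (RNA v2 or Stranded mRNA), per the labels; the kit of each library is not stated. The authors deposited raw counts per gene, which were not altered. The submitters' processing notes name FastQC 0.11.5, STAR 2.7.6a and GRCm38; counter, strand setting and annotation were not given in the sources used. No row lacked a gene name, and the table had 0 columns from elsewhere.

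Symbols, positions, exon lengths and transcripts came from GENCODE M21 (GRCm38), which matched 52489 of 52636 identifiers. Sequences of the members are not reported here. Groups and replicate numbers came from the sample titles. Genes were filtered with filterByExpr, scaled with TMM and tested with edgeR 4.0.16 in R 4.3.3 (glmQLFit, glmQLFTest, two-sided, no covariate), and p-values were adjusted over 13901 genes by Benjamini-Hochberg, with 0.05 as the threshold. Standard errors were log2 fold changes divided by the root of F. The test was tested on simulated data. Ratios between members used 0.5 added counts. Totals of 17274639 to 19410458 counts set the precision; bounds from counts cover counting error only.

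Named were the members, Erg and Fli1, called Sox genes, up to 4 called members of each linked list with the largest absolute log2 fold change at a mean of at least 5 CPM, the nearest tested protein-coding neighbours and the 3 genes nearest in profile. Members and lists were chosen with earlier results of these data known. Alternatives were RLE, upper-quartile and library-size scaling, DESeq2 1.42.0, limma voom (limma 3.58.1), no filter, a filter of 1 CPM in 3 libraries, the replicate block, each library left out, 2 added counts, the longest transcript as length and, chosen after seeing the data, a term for sex read from Xist (over 50 CPM).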

Additional observations from a re-analysis of the deposited data

Results flagged for a closer look

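The difference of Sox17 between knockouts and controls had opposite signs in the sexes, read from Xist. The log2 ratio of mean CPM, knockout over control, was -0.56 in the male libraries (1 knockout, 2 controls) and 0.81 in the female libraries (2 knockouts, 1 control). Every library of each sex lay on its side. The difference between the sexes was not tested, and the single female control is the library that stood apart from the other controls.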

How the results depend on the processing

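The fall of Sox7 kept its direction and its call under all 15 alternatives, at log2 fold changes of -2.33 to -1.99. That of Sox18 kept both in 14 of 15, missing the threshold without knockout 2 (-4.18), and left-out libraries moved it between -5.21 and -3.96. Sox17 ranged from -0.69 to -0.10 with single libraries left out; of these fits it passed in the one without control 2 (-0.69), and it turned to 0.12 (edgeR adjusted p = 0.835) with the term for sex, which was chosen after seeing the data; the cause was not tested.

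Genes called lower numbered 1621, and 806 with the replicate block; genes called higher numbered 1816, and 1038 with the block. Library size only gave 1268 lower and 2501 higher. With single libraries left out they ranged from 548 to 3511 and from 803 to 3617, and linked genes called from 7 to 27 (19 with all libraries). Other Sox genes called numbered 2 with all libraries, 4 with library size only, with DESeq2 and with limma voom, 1 with the block, and 0 to 5 with single libraries left out (edgeR; 3 to 5 at an unadjusted p under 0.05). Replicate numbers were not taken as pairs, because same-numbered libraries deviated together at correlations of -0.19, 0.19 and 0.32 and control 1 correlated best with knockout 3. With the block Sox7, Sox17 and Sox18 stood at -2.14, -0.17 and -4.51. The ratios and shares of members kept their direction under each alternative. Depth limited Sox genes with few counts; 9 of the 17 other Sox genes were not tested.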

Other observations

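Set against Cdh5, an endothelial gene that itself fell, the members again differed; this scale was chosen after their values were seen and has no test. Per 100 counts of Cdh5, Sox7 had 2.92, 3.15 and 3.84 counts in knockouts 1, 2 and 3, against 3.84, 7.70 and 3.88 counts in controls 1, 2 and 3. Sox17 had 5.37, 5.42 and 4.71 counts in knockouts, against 2.20, 1.56 and 2.07 counts in controls, so that on this scale each knockout lay above each control. Sox18 had 0.431, 1.02 and 2.04 counts in knockouts, against 8.29, 6.97 and 7.81 counts in controls. Control 2 stood apart from the other controls most for Sox7 here, whereas in CPM it stood apart for Sox17 and Sox18.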
